A study of Mus musculus with 24 samples.

Results

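The genes described here are 10 genes of goblet cells and the mucus layer, chosen by name: Muc2, Fcgbp, Tff3, Clca1, Zg16, Agr2, Spdef, Spink4, Retnlb and Muc13. All 10 were found by symbol among the 55536 genes of the read-count table, and 9 of them were among the 14076 genes that passed the filter on low counts. Retnlb did not pass. RNA came from the ileum end of the small intestine in 24 mice of the inbred C57BL/6N strain, with 1 library per animal. All animals were 4 to 5 weeks old at the start of the diet. The CD group was fed a control diet with 10% of the energy from fat, and the HFD group a high-fat diet with 60% of the energy from fat. The CDmetf and HFDmetf groups received the same diets and, after 20 weeks, 10 weeks of metformin (a glucose-lowering drug) in drinking water at 50 mg/kg/day. Per group there were 3 males (M1, M2, M3) and 3 females (F1, F2, F3), each taken from a separate cage of 3 animals.

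Goblet cells are secretory epithelial cells that make and release the gel covering the gut surface. The gel is a network of the mucin Muc2, which is folded with the help of the protein disulfide isomerase Agr2 and coated with O-glycans before it is packed into granules. Fcgbp, Clca1, Zg16 and Tff3 are secreted with it, and Spdef is a transcription factor needed for goblet cells to mature. Muc13 is a mucin anchored in the cell membrane and is also made by absorptive cells, so its level is not a measure of goblet cells alone.

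The 250 bases before the RefSeq start of 4 of the genes are shown because these genes carry the comparisons below: Muc2 as the gel mucin, Agr2 and Spdef as its helper and its regulator, and Muc13 as the membrane mucin. RefSeq promoters (GRCm38.p6) were found for 5 of the 10 genes, these 4 and Fcgbp, and Muc13 has 2 annotated starts, of which the first is shown. Capitals mark letters of 1 of 5 motifs searched on both strands in the 300 bases from 250 before to 50 after each start. The motifs were TATAAA (the TATA box), CAGCTG (an E-box of basic helix-loop-helix factors), TGTTTAC (a forkhead core), TTTATNG (a caudal-type homeobox motif, which with A at N contains the reverse complement of TATAAA) and CCGGAT (an ETS-type core of the kind SPDEF binds).
Muc2, chr7:141690090-141690339, plus strand: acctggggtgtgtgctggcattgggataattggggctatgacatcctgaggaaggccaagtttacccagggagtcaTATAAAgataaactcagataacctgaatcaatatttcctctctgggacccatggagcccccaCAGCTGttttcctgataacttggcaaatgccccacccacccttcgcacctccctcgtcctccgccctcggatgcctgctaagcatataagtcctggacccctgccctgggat
Agr2, chr12:35992675-35992924, plus strand: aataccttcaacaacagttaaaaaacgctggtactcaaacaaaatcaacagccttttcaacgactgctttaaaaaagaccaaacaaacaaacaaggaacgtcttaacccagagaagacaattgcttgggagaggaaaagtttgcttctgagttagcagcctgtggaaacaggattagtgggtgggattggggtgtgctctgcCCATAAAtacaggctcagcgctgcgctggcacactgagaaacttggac
Spdef, chr17:27728952-27729201, minus strand: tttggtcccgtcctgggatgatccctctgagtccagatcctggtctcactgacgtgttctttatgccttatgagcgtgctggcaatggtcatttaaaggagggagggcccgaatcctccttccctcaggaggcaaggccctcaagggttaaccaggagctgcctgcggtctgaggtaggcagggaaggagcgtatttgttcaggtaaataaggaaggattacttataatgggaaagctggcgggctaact
Muc13, chr16:33793787-33794036, plus strand: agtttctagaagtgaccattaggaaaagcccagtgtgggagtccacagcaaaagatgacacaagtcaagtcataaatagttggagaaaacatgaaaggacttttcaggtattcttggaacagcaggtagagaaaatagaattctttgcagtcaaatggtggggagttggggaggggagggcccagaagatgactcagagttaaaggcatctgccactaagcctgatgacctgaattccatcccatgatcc

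The Muc2 window held 1 TATAAA and 1 CAGCTG, the Agr2 window held 1 TTTATNG on the opposite strand, and the Fcgbp window held 1 CAGCTG. No match to the 5 motifs was present in the Spdef window or in either Muc13 window. Among all 32851 RefSeq promoter windows of this length, 13.6% held TATAAA, 16.3% CAGCTG, 3.65% TGTTTAC, 10.9% TTTATNG and 6.04% CCGGAT. These matches describe the letters of the windows and say nothing of binding.

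Library depth ranged from 1829690 to 40606442 reads on genes. In CD M3, 10 genes took 85.4% of the reads, against 9.22 to 36.6% in the other 23 libraries, of which HFDmetf F2 was highest. The library labelled HFD M2 held 3355 reads of Xist and 0 of Y-linked genes, and the library labelled HFD F2 held 1 and 423, so both went against their labelled sex. Ileal markers were present in every library, with the summed CPM (read counts scaled to a common TMM-normalized library size) of 5 of them between 205 and 3984. HFD M3 was lowest, with the bile acid binding protein Fabp6 at 0.817 CPM against 32.6 to 2662 in the other libraries. The same library was highest for 6 markers of the proximal gut, at 9255 CPM. Only 1 of 6 colon markers passed the filter on low counts. Values without CD M3, HFD M3, or HFD M2 and HFD F2 are given for some results below.

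The 10 genes together took 1.07 to 2.35% of the reads on genes in 23 libraries and 0.262% in CD M3. Compared per kilobase of exon, Zg16, a lectin that binds bacterial cell walls, had the highest level, at 1383 ± 394 CPM per kb (SD over 24 libraries). Tff3, a small trefoil peptide of the gel, followed at 766 ± 152. Fcgbp, a large gel protein linked to the Muc2 network, stood at 606 ± 152 CPM per kb, Muc13 at 519.8 ± 182, Muc2 at 512 ± 186 and Clca1, a secreted metalloprotease of mucus, at 502 ± 128. Spink4, a Kazal-type protein of goblet cells, reached 436 ± 139 CPM per kb and Agr2 194 ± 61.4. Spdef lay far below, at 7.05 ± 1.71, as did Retnlb, at 0.285. The level per kb of Zg16 was above that of Tff3 in 23 of 24 libraries, and Spink4 was above Agr2, Agr2 above Spdef and Spdef above Retnlb in all 24. Between Fcgbp and Spink4 the neighbours in this order were not separated by their spread: Muc13 was above Muc2 in 13 libraries and Muc2 above Clca1 in 13. Exon lengths were taken from GENCODE M21, whose models may differ from those used for counting.

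**Figure D1:**
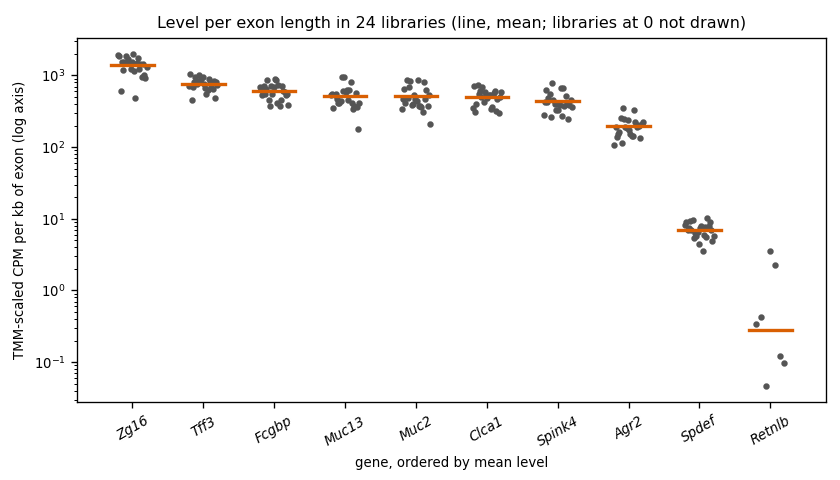
TMM-scaled CPM per kb of exon (log axis) of the 10 genes in 24 libraries, ordered by mean level. Each point is 1 library and the line is the mean, and libraries with no reads of Retnlb are not drawn. Zg16 is highest at a mean of 1383, 5 genes lie between 502 and 766, Spink4 is at 436, and Spdef is at 7.05.

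All 10 genes are protein coding. Muc2 (ENSMUSG00000025515) lies at chr7:141690340-141754693 and Fcgbp (ENSMUSG00000047730) at chr7:28071236-28120862, both on the plus strand, and Zg16 (ENSMUSG00000049350) at chr7:127050156-127087328 on the minus strand. Tff3 (ENSMUSG00000024029, chr17:31125306-31129646) and Spdef (ENSMUSG00000024215, chr17:27714352-27728955) share a chromosome and the minus strand. Clca1 (ENSMUSG00000028255) lies at chr3:145003817-145032776 on the minus strand. Agr2 (ENSMUSG00000020581, chr12:35992907-36004087), Spink4 (ENSMUSG00000028415, chr4:40920052-40931395), Retnlb (ENSMUSG00000022650, chr16:48816856-48818892) and Muc13 (ENSMUSG00000022824, chr16:33794037-33819934) are on the plus strand. Coordinates are those of GRCm38. Only the exons of Muc13 overlapped another gene, Gm15657 on the opposite strand, over 184 bases. Gm15657 had 2287 reads in all libraries against 480010 of Muc13, and because the counted strand is not stated, reads in those bases cannot be assigned with certainty.

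The diet and metformin comparisons asked whether the mucus genes moved with the diet, with metformin on either diet, or with both. No member passed an FDR of 0.05 in the diet contrasts (HFD vs. CD and, on metformin, HFDmetf vs. CDmetf) or the metformin contrasts (CDmetf vs. CD and HFDmetf vs. HFD; edgeR quasi-likelihood test, 14076 genes, Benjamini-Hochberg). Over all genes 0% passed in each of these contrasts. The paper, which used limma-voom on these animals, reports genes past an FDR of 0.05 in every one of them. The 0% is that of the edgeR fit here, and the cause of the difference was not tested. By DESeq2 and by limma-voom no member passed either. At an unadjusted p under 0.05, the members counted 0 in HFD vs. CD, where 4.63% of all genes lay under it, and 1 in HFDmetf vs. CDmetf, where 7.87% did. They counted 1 in HFDmetf vs. HFD (6.61% of all genes) and 0 in CDmetf vs. CD (5.14%). The median log2 fold change (logFC) of the 9 tested members was −0.10 in HFD vs. CD, −0.16 in HFDmetf vs. CDmetf, −0.03 in HFDmetf vs. HFD and 0.13 in CDmetf vs. CD. The medians of all genes were −0.0047, 0.03, 0.03 and −0.0023. In all 36 of these values the 95% intervals lay between −1.26 and 0.86. The contrasts share groups, so their values are not independent of each other. In pieces of whole tissue, fewer goblet cells and less RNA per goblet cell cannot be told apart.

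**Figure D2:**
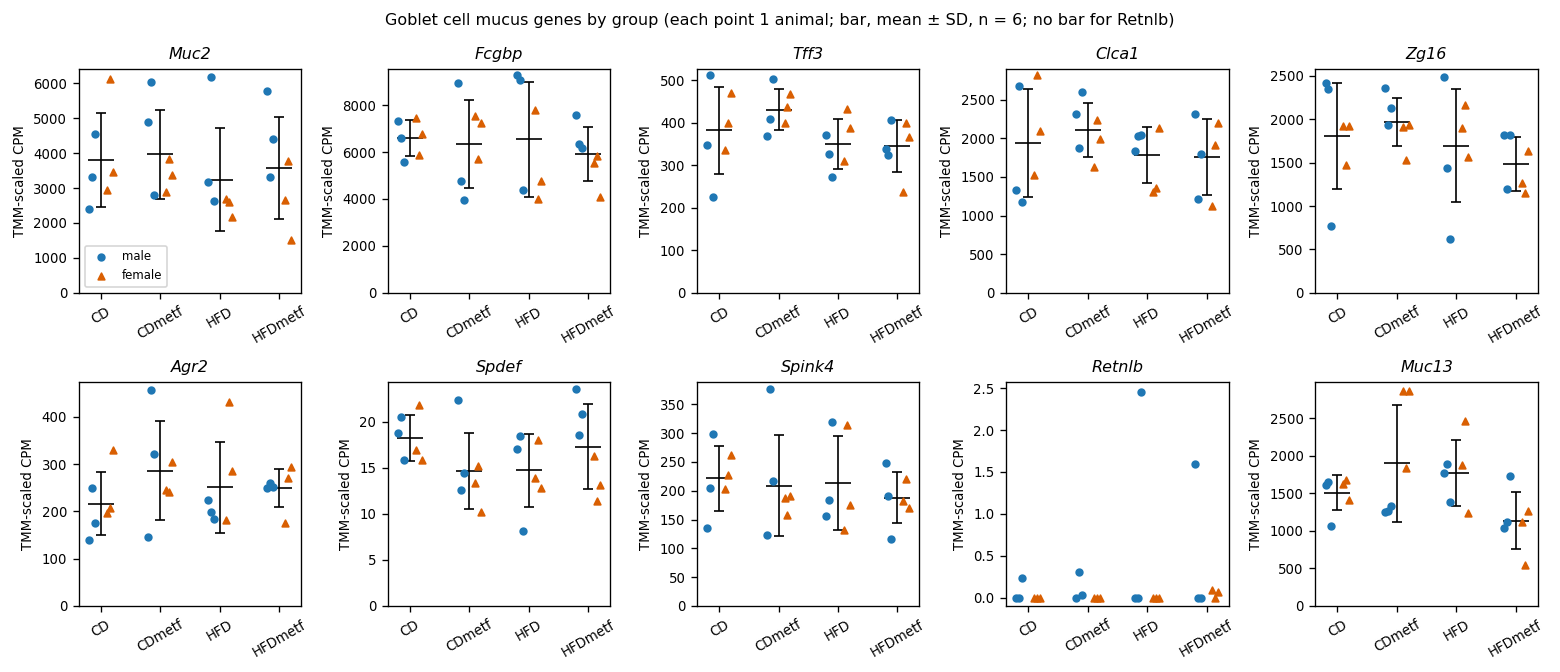
TMM-scaled CPM of the 10 genes (vertical axes) in the CD, CDmetf, HFD and HFDmetf groups. Each point is 1 animal, circles males and triangles females by label, and bars show the mean ± SD over 6 animals, with no bar for Retnlb. The groups overlap in every panel, and Muc13 spreads most in CDmetf, from 1249 to 2867.

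**Figure D3:**
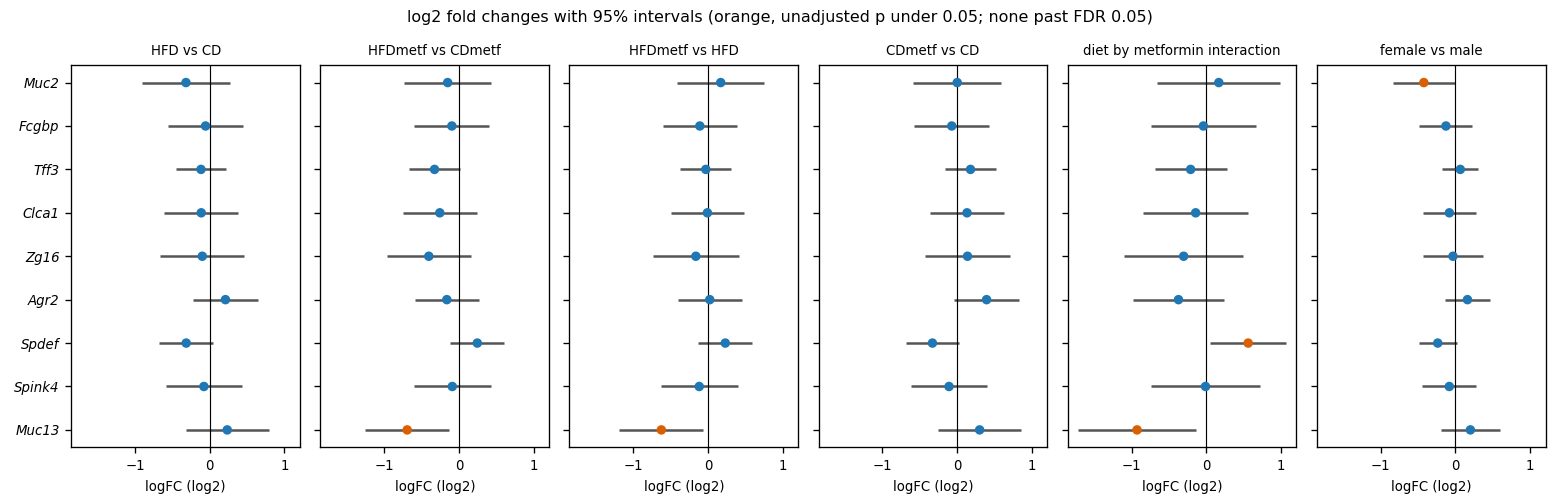
logFC (horizontal axes, log2) of the 9 tested genes in 6 comparisons, with 95% intervals as lines. Orange points have an unadjusted p under 0.05. Muc13 is orange in 3 panels, Spdef in 1 and Muc2 in 1, and no gene passes an FDR of 0.05.

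Muc2, the gel-forming mucin, ranged from 2408 to 6122 CPM in CD (median 3401), from 2791 to 6049.8 in CDmetf (3601), from 2174 to 6185 in HFD (2662) and from 1512 to 5788 in HFDmetf (3547). The groups overlapped widely, and the highest HFD value belonged to the library labelled HFD M2. The logFC of Muc2 was −0.32 ± 0.28 (SE) in HFD vs. CD and 0.0015 ± 0.28 in CDmetf vs. CD. Neither passed the test (unadjusted p = 0.272 and 0.996, FDR = 1.00 in both, edgeR). The HFD vs. CD value was −0.44 without HFD M2, −0.47 without CD M1 and −0.12 without CD F2. Agr2 was at 140.1 to 329.9 CPM in CD, 146 to 458 in CDmetf, 183 to 430.5 in HFD and 175 to 294 in HFDmetf. Pairs, here and below, are animals of the same labelled sex and replicate number. Those with HFD M2 or HFD F2 join animals whose sex-linked reads differ. In CDmetf vs. CD Agr2 stood higher in 5 of 6 pairs, with a logFC of 0.39 ± 0.21 (unadjusted p = 0.0708, FDR = 0.940, edgeR). Without CD F3, CDmetf M1 or CDmetf F2 the unadjusted p fell to between 0.0291 and 0.0376. Without CDmetf M2 the Agr2 logFC was 0.21 (unadjusted p = 0.314), and without CD M3 0.32 (unadjusted p = 0.156). For both genes the animals of a group differed more than the group medians did.

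Fcgbp, Clca1 and Spink4 had similar means in the 4 groups. Fcgbp averaged 6598 ± 761 CPM in CD, 6354 ± 1876 in CDmetf, 6547 ± 2445 in HFD and 5929.8 ± 1147 in HFDmetf (SD, n = 6 each), and its logFC lay between −0.11 and −0.06 in the 4 contrasts. Clca1 averaged 1938 ± 699.7, 2109 ± 347, 1784 ± 363 and 1759 ± 495 CPM in the same order, and its logFC lay between −0.26 and 0.13. Spink4 averaged 222 ± 56.2, 209 ± 87.9, 214 ± 81.8 and 188 ± 45.1 CPM, with logFC between −0.12 and −0.08. For these 3 genes the differences between group means were smaller than the SD of at least 1 of the groups compared.

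Tff3 and Zg16 were lower in HFDmetf than in CDmetf in 6 of 6 pairs each, without passing the test. Tff3 ranged from 369 to 503 CPM in CDmetf (median 423) and from 238 to 406 in HFDmetf (352). Its logFC was −0.33 ± 0.16 (unadjusted p = 0.0603, FDR = 0.636, edgeR). Zg16 ranged from 1532 to 2365 CPM in CDmetf (median 1936) and from 1145 to 1817 in HFDmetf (1452). Its logFC was −0.40 ± 0.27 (unadjusted p = 0.153, FDR = 0.719, edgeR). For both genes the 2 groups overlapped, with the lowest CDmetf animals inside the HFDmetf range. With a score of 8 pan-epithelial markers in the model, the logFC became −0.15 for Tff3 and −0.045 for Zg16. In the fit of only the 12 samples compared, the unadjusted p was 0.0240 for Tff3 and 0.0231 for Zg16. Their lowest values in CD were those of CD M3, at 226 CPM for Tff3 and 767 for Zg16. Without CD M3 the Tff3 logFC in HFDmetf vs. CDmetf stayed at −0.33, with an unadjusted p of 0.0184. CD M3 is in neither of these groups, so leaving it out acts only through terms shared by all groups, such as the estimate of spread. Without HFDmetf M3 the Tff3 logFC was −0.39 with an unadjusted p of 0.0370. HFD M3 held the lowest Zg16 of all, at 617 CPM.

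Spdef, the transcription factor, had higher means in CD (18.3 ± 2.49 CPM) and HFDmetf (17.3 ± 4.60) than in CDmetf (14.7 ± 4.12) and HFD (14.7 ± 3.94), within the spread of the groups. It ranged from 15.8 to 21.8 CPM in CD (median 17.9), from 10.2 to 22.3 in CDmetf (13.9), from 8.17 to 18.4 in HFD (15.5) and from 11.4 to 23.5 in HFDmetf (17.4). All groups overlapped. In HFD vs. CD the value was lower in 6 of 6 pairs (logFC = −0.32 ± 0.17, unadjusted p = 0.0808, FDR = 1.00, edgeR), and in CDmetf vs. CD in 5 of 6 (logFC = −0.33 ± 0.17, unadjusted p = 0.0674, FDR = 0.940). HFD M3, the library with the least Fabp6, was the lowest for Spdef, and without it the HFD vs. CD value was −0.20. Without HFD F2 it was −0.38 (unadjusted p = 0.0399), without both HFD F2 and HFD M2 −0.46 (unadjusted p = 0.0276), and by DESeq2 the unadjusted p was 0.0498, so in these fits Spdef lay under an unadjusted p of 0.05. In HFDmetf vs. HFD Spdef was higher in 5 of 6 pairs, with a logFC of 0.23 ± 0.17, which was 0.092 without HFD M3. The diet by metformin interaction, which is the metformin effect on the high-fat diet minus that on the control diet, was 0.56 ± 0.24 for Spdef (unadjusted p = 0.0316, FDR = 0.799, edgeR). Without the replicate block its unadjusted p was 0.0553, and with HFD M3 left out 0.0686. Leaving out any of 10 single libraries, HFD M3 among them, moved it to between 0.0517 and 0.0726. The interaction counted 2 of the 9 members at an unadjusted p under 0.05, against 6.03% of all genes, and 0 members past an FDR of 0.05, against 0%. By limma-voom and DESeq2 no member passed that FDR either.

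Muc13, the membrane mucin, was the other of those members with an interaction under that p, and had the largest absolute logFC of the 9 in HFDmetf vs. CDmetf. It ranged from 1070.1 to 1679.5 CPM in CD (median 1617), from 1249 to 2867 in CDmetf (1579), from 1238 to 2468 in HFD (1824) and from 542 to 1734 in HFDmetf (1121). HFDmetf had the lowest mean and median, and its range overlapped that of each other group. In HFDmetf vs. CDmetf Muc13 was 1.62-fold lower and lower in 5 of 6 pairs (logFC = −0.69 ± 0.27, unadjusted p = 0.0184, FDR = 0.599, edgeR). In HFDmetf vs. HFD it was 1.54-fold lower and lower in 4 of 6 pairs (logFC = −0.62 ± 0.27, unadjusted p = 0.0313, FDR = 0.640). The interaction was −0.93 ± 0.38 (unadjusted p = 0.0237, FDR = 0.799). In HFD vs. CD the logFC was 0.23 ± 0.27 and in CDmetf vs. CD 0.30 ± 0.27.

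The Muc13 values moved in both directions when single animals were left out. In CDmetf the 3 females had 1832, 2861 and 2867 CPM and the 3 males 1249, 1267 and 1326, so the sexes did not overlap there. The sexes did not overlap either for Spdef and Fcgbp in HFDmetf or for Zg16 in CDmetf, so such a split was not particular to Muc13. No share of all genes with such a split is given here. HFDmetf F2, with 1829690 reads the shallowest library, had the lowest value of all, 542 CPM. In this library 10 genes took 36.6% of the reads, the highest share after CD M3. Without CDmetf F1, CDmetf F3 or HFDmetf F2 the HFDmetf vs. CDmetf logFC was −0.57, −0.53 and −0.51, with unadjusted p-values of 0.0601, 0.0683 and 0.0585. Without HFDmetf M3 it was −0.90 (unadjusted p = 0.0025), and the HFDmetf vs. HFD value −0.83 (0.0045). Of 36 alternatives, 32 kept the HFDmetf vs. CDmetf value and 29 the HFDmetf vs. HFD value under an unadjusted p of 0.05. Many of the 36 left out a library of the groups not compared, which acts only through terms shared by all groups. The fit without CD M3 was counted more than once. These counts therefore say little of how stable the values were. The HFDmetf vs. HFD value passed an unadjusted p of 0.05 no longer without HFD M2, HFD F2, HFDmetf M1, HFDmetf F1 or HFDmetf F2 (0.0519 to 0.0904), and the interaction without CDmetf F1 or CDmetf F3 (0.0505 and 0.0574). Leaving out HFD M2 and HFD F2 (as labelled), the 2 highest of HFD, the HFDmetf vs. HFD logFC was −0.40 (unadjusted p = 0.211) and the interaction −0.68 (unadjusted p = 0.120). The HFD vs. CD value then was −0.037 in place of 0.23.

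Epithelial markers varied together with Muc13, with an r of 0.70 between Muc13 and their score (0.43 without the 2 farthest libraries). The summed CPM of 8 pan-epithelial markers (Epcam, Cdh1, the keratins Krt8, Krt18, Krt19 and Krt20, Vil1 and Cldn7) ranged from 7981 to 12218 in CD, 8944 to 12734 in CDmetf, 9107 to 12658 in HFD and 6097 to 11723 in HFDmetf, and none of them was at 0. The lowest sum was again that of HFDmetf F2. In HFDmetf vs. CDmetf, where 7.87% of all genes had an unadjusted p under 0.05, 7 of the 8 markers were lower, 1 of them at that p. With their score in the model, the Muc13 logFC was −0.38 in HFDmetf vs. CDmetf (unadjusted p = 0.113) and −0.42 in HFDmetf vs. HFD (unadjusted p = 0.0721). Muc13 had an r of 0.63 with the score of 8 enterocyte markers (0.39 without the 2 farthest libraries). Their summed CPM ranged from 10541 to 40239 in CD, 12764 to 32734 in CDmetf, 17757 to 42748 in HFD and 5373 to 32094 in HFDmetf, with none at 0, and their part in the Muc13 result was not tested. All 6 B-cell markers were lower in HFDmetf than in CDmetf at an unadjusted p under 0.05. Their summed CPM ranged from 9.02 to 321 in CDmetf and from 6.03 to 19.3 in HFDmetf, and their part in the Muc13 result was not tested.

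**Figure D4:**
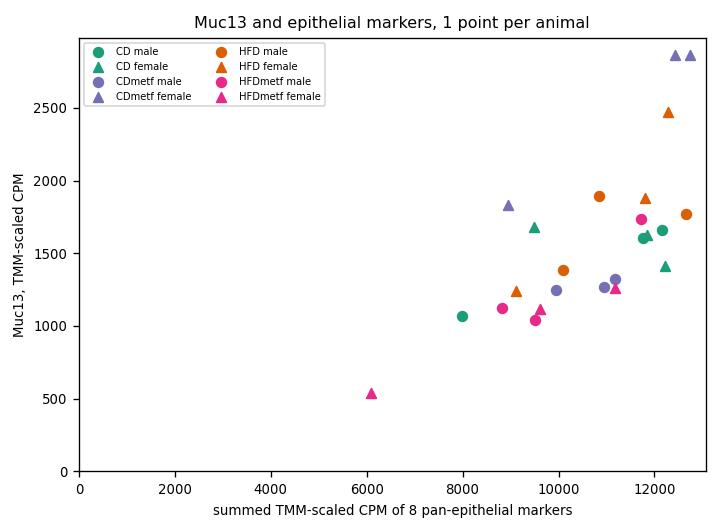
Muc13 (vertical axis, TMM-scaled CPM) against the summed TMM-scaled CPM of 8 pan-epithelial markers (horizontal axis), with 1 point per animal, coloured by group and shaped by labelled sex. HFDmetf F2 lies lowest on both axes (542 and 6097), and the 3 CDmetf females lie above the 3 CDmetf males in Muc13.

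The sexes were compared by label over all groups. Muc2 averaged 4127 ± 1369.9 CPM in 12 animals labelled male and 3172 ± 1142 in 12 labelled female. The female vs. male logFC was −0.42 ± 0.20 (unadjusted p = 0.0475, FDR = 0.680, edgeR). HFD M2 and HFD F2, whose sex-linked reads went against their labels, had 6185 and 2610 CPM of Muc2, and the first was the highest of all libraries. Muc2 was the only member under an unadjusted p of 0.05, as were 7.27% of all genes. Its p was 0.0745 without the replicate block and 0.0502 with RLE normalization. Leaving out HFD M2 and HFD F2 (as labelled), it was −0.32 (unadjusted p = 0.143), and it missed that p on leaving out any of 17 single libraries (0.0514 to 0.120). No member passed an FDR of 0.05 (0.0071% of all genes did, and by DESeq2 and limma-voom no member did). Spdef was at 17.6 ± 4.33 CPM in animals labelled male and 14.9 ± 3.16 in those labelled female (logFC = −0.24 ± 0.12, unadjusted p = 0.0688, FDR = 0.683).

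Differences of the diet and metformin effects between the labelled sexes were tested in a model of 8 groups with 14402 genes. For Muc13 the HFDmetf vs. CDmetf logFC in females minus that in males was −1.40 ± 0.50 (unadjusted p = 0.0111, FDR = 0.874, edgeR). It was the only member under an unadjusted p of 0.05 in that contrast, where 5.28% of all genes were. The other 3 contrasts counted 0 members, against 2.11% of all genes in HFD vs. CD, 3.33% in HFDmetf vs. HFD and 5.21% in CDmetf vs. CD. The Muc13 difference between the sexes was 0.87 ± 0.50 in CDmetf vs. CD (unadjusted p = 0.0972), and no member passed an FDR of 0.05 in any of the 4. Leaving out HFD M2 and HFD F2 (as labelled), the Muc13 difference in HFDmetf vs. CDmetf was −1.42 (unadjusted p = 0.0085), and without CD M3 −1.37 (0.0073). These libraries are in neither group of that contrast, so leaving them out acts only through terms shared by all groups. No CDmetf or HFDmetf animal was left out of this test, so these values do not show how it depends on single animals. Without CD M3 the Muc13 difference in CDmetf vs. CD was 1.07 (unadjusted p = 0.0373), and that of Muc2 in HFD vs. CD −1.27 (unadjusted p = 0.0207), against −0.83 (0.145) with it and −0.51 (0.417) when HFD M2 and HFD F2 were left out instead.

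Retnlb, the resistin-like protein of goblet cells known for its induction by bacteria and type 2 immunity, was near the limit of detection. It had 22 reads in all, in 7 of 24 libraries, of which 10 were in HFDmetf M1 and 6 in HFD M3. The 2 libraries stood at 1.59 and 2.45 CPM, and the highest of the others was at 0.301. A count of 0 allows up to 3 reads, or 0.0705 to 1.71 CPM depending on the depth of the library, so lower levels were not detectable, and these limits cover counting error only. Exact two-sided permutation tests of the group means over 924 arrangements gave p = 1 for HFD vs. CD, 0.576 for HFDmetf vs. CDmetf, 1 for HFDmetf vs. HFD and 0.727 for CDmetf vs. CD. In HFD vs. CD each group had reads in only 1 library, so the test could give no other p there. With so few reads these tests say little about Retnlb.

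The 9 tested genes did not vary as 1 block across the 24 libraries. Of 36 pairs, 23 had a Pearson r above 0, 3 above 0.5 and 4 below −0.3, with a median of 0.0673. The 3 highest all joined Tff3, with Zg16 (r = 0.64, Spearman rho = 0.52), Clca1 (r = 0.63, rho = 0.53) and Agr2 (r = 0.61, rho = 0.67). Without the 2 libraries farthest from the Tff3 median these r were 0.51, 0.43 and 0.56. Muc2 had its highest r with Spdef, 0.41, and with Fcgbp, 0.38. Fcgbp ran opposite to Agr2 (r = −0.51, rho = −0.44) and Spink4 (r = −0.50, rho = −0.44), while Agr2 and Spink4 had an r of 0.50 (rho = 0.40). Within groups the Fcgbp values were −0.50 with Agr2 and −0.54 with Spink4. The points share library depth and tissue composition, and these values are descriptions.

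**Figure D5:**
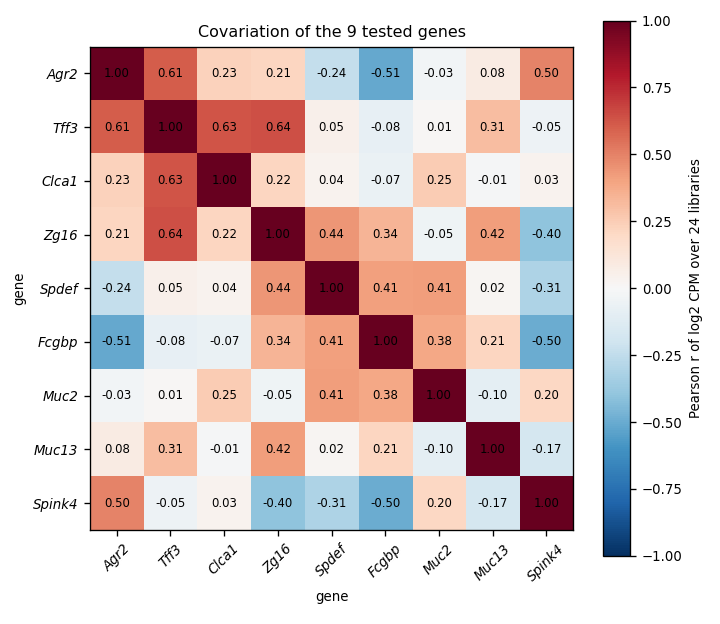
Pearson r of log2 CPM between the 9 tested genes (both axes) over 24 libraries, from −1 (blue) to 1 (red), with the value in each cell. Tff3 stands out with Agr2, Clca1 and Zg16 (0.61 to 0.64), and Fcgbp is negative with Agr2 and Spink4 (−0.51 and −0.50).

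Against scores of other gene lists, Muc2 had an r of 0.69 with secretory lineage factors and 0.64 with smooth muscle markers. Clca1 reached 0.75 with O-glycan enzymes, Zg16 0.71 with pan-epithelial markers, and Muc13 0.84 with receptors and signals of type 2 immunity and IL-22. Without the 2 libraries farthest from the median of each score these were 0.62, 0.57, 0.80, 0.71 and 0.75. The r of Zg16 with tuft cell markers, −0.71, was −0.41 without the 2 farthest libraries. Over all tested genes, those most like the mean z-score of the 9 members over 24 libraries were Rab11b (r = 0.84), a small GTPase of vesicle recycling, Slc44a4 (0.82), a thiamine pyrophosphate transporter, Slc51a (0.80), a subunit of the basolateral bile acid transporter, and the galactosyltransferase B4galt4 (0.80). Dpagt1 (0.77), the first enzyme of N-glycan assembly, Paqr4 (0.77), Slc22a23 (0.76) and Cnnm4 (0.76), a magnesium transporter, followed. Without CD M3 the r of these 8 genes lay between 0.72 and 0.83, and 6 of them were still among the 8 highest.

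Genes that act with the members were grouped by role, and 0 genes of these lists passed an FDR of 0.05 in any of the 4 contrasts (edgeR). Among 18 tested genes of goblet granules and the endoplasmic reticulum, 14 were lower in HFD vs. CD, 3 of them at an unadjusted p under 0.05 and 0 higher at it, and the list median was −0.14. Over all genes 48.8% were higher in this contrast and 4.63% were under that p. In the same contrast 6 of 6 proximal gut markers were higher (median 1.65, 3 at that p), as were 6 of 6 B-cell markers (median 1.97, 5 at it), and 5 of 5 smooth muscle markers were lower (median −0.32, 2 at it). The proximal gut markers include Apoa4, which the paper lists among its top genes by fold change in HFD vs. CD, so they do not mark position alone. The part of these markers in the granule list was not tested. The 3 granule genes under that p were Bcas1 (logFC = −0.43, unadjusted p = 0.0027), a goblet cell gene of uncertain role, Ern2 (−0.33, 0.0057), the stress sensor IRE1beta of mucus-making cells, and Lrrc26 (−0.46, 0.0073), a potassium channel subunit. Ern2 averaged 41.8 ± 6.46 CPM in CD, 38.9 ± 6.61 in CDmetf, 32.9 ± 4.50 in HFD and 43.4 ± 6.76 in HFDmetf. In HFDmetf vs. HFD its logFC was 0.38 ± 0.11 (unadjusted p = 0.0019, FDR = 0.640), and the groups overlapped. Vamp8, a vesicle fusion protein, was at −0.50 in the same contrast (unadjusted p = 0.0061, FDR = 0.640).

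Of 17 tested O-glycan enzymes, 13 were lower in HFDmetf vs. CDmetf, 2 of them at an unadjusted p under 0.05 (7.87% of all genes were), with a list median of −0.28. Over all genes 55.2% were higher in this contrast. The median of the 8 pan-epithelial markers, 7 of them lower, was −0.21 in this contrast, and their part in the list was not tested. B4galnt2, which makes the Sd(a) glycan, averaged 277 ± 33.1 CPM in CDmetf and 207 ± 34.9 in HFDmetf (logFC = −0.42, unadjusted p = 0.0054, FDR = 0.582), and Gcnt1, a core 2 enzyme, 10.9 ± 5.77 and 5.19 ± 1.99 (−1.04, 0.0238, FDR = 0.599). St3gal1, a sialyltransferase, was at 0.76 in CDmetf vs. CD (unadjusted p = 0.0068, FDR = 0.940). Of 13 secretory lineage factors, the Notch ligand Dll4 was at −0.39 in HFD vs. CD and −0.40 in HFDmetf vs. CDmetf (unadjusted p = 0.0370 and 0.0356). Its relative Dll1 was at −0.37 in CDmetf vs. CD (unadjusted p = 0.0700) and Creb3l1, a secretory pathway factor, at −0.58 in HFD vs. CD (0.0795). In CDmetf vs. CD 11 of the 13 were higher, with a median of 0.04, and 49.6% of all genes were higher.

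Of 7 tested ion transporters and proteases that shape mucus, 6 were lower in HFDmetf vs. HFD, 2 of them at an unadjusted p under 0.05, with a median of −0.40. Over all genes 53.9% were higher in this contrast and 6.61% were at that p. The chloride/bicarbonate exchangers Slc26a3 and Slc26a6 were at −0.49 and −0.59 (unadjusted p = 0.0112 and 0.0305, FDR = 0.640 in both), and Mep1b, a subunit of the meprin that frees mucus, at −0.65 (0.0531). Slc26a3 averaged 168 ± 34.5 CPM in HFD and 120.5 ± 38.2 in HFDmetf. Of the 7 tested receptors and signals of type 2 immunity and IL-22, 7 were higher in HFD vs. CD (median 0.19, 0 at an unadjusted p under 0.05). Over all genes 48.8% were higher in HFD vs. CD and 4.63% were at that p. In HFDmetf vs. HFD 7 of the list were lower (median −0.37, 2 at that p). The 2 were the receptor chains Il13ra1 (−0.51, unadjusted p = 0.0205) and Il10rb (−0.45, 0.0278), and the signalling factor Stat3 of the same list was at −0.25 (0.0730). The cytokines themselves were scarce, with 7 reads of Il13, 59 of Il4, 13 of Il25 and 4 of Il22 over 24 libraries. In HFDmetf vs. HFD 6 of 8 pan-epithelial markers (median −0.24), 8 of 8 enterocyte markers (−0.70) and 6 of 6 B-cell markers (−2.58, all 6 at an unadjusted p under 0.05) were also lower. In that contrast 6 of 6 stroma markers (0.56) and 5 of 5 smooth muscle markers (0.44) were higher, each with 1 at that p. The part of these markers in the 2 lists was not tested.

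Other mucins gave 5 tested genes of 9 found, and none had an unadjusted p under 0.05 in the 4 contrasts. The membrane mucin Muc3 reached 607.5 to 2033 CPM over the 24 libraries, and Muc5ac, the gel mucin of the stomach, had 0 reads. The smallest p-values belonged to Muc6 in CDmetf vs. CD (logFC = −1.03, unadjusted p = 0.0694), Muc3a in HFDmetf vs. CDmetf (0.39, 0.0736) and Muc16 in HFDmetf vs. HFD (1.19, 0.0963). Of relatives of the members, 5 of 11 were tested. Clca3a1 was at −0.82 in CDmetf vs. CD (unadjusted p = 0.0217, FDR = 0.940), Clca4b at −0.93 in HFDmetf vs. HFD (0.0931) and Clca3a2 at −0.57 in CDmetf vs. CD (0.125). The Clca genes are near copies of each other and their counts are uncertain. Clca4b, an enterocyte relative of Clca1, varied from 185 to 5588 CPM between libraries, and the trefoil genes Tff1 and Tff2 had 3 and 9 reads in all.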

How the data were processed

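RNA was rRNA-depleted and sequenced as paired reads from directional libraries, per the labels. The authors used Trimmomatic 0.39 for trimming (quality 25 in windows of 5, reads of at least 30 bp) and STAR 2.5.3a for mapping to GRCm38, and deposited raw counts per gene. Neither the annotation release nor the strand counted is given in the sources used here, so counts of overlapping and near-identical genes are uncertain. Of 55536 gene IDs, 55450 had a name in GENCODE M21. The table held 0 columns of other samples.

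From the counts, genes were filtered with filterByExpr, libraries normalized with TMM, and 14076 genes tested in R 4.3.3 with edgeR 4.0.16 (quasi-likelihood, Benjamini-Hochberg). The model held group, sex and replicate number over 24 libraries, with 17 residual degrees of freedom. Animals came from separate cages in 3 blocks, by the study's methods, which include the block. The replicate number stood for it, taken from the labels, which do not say that it marks a block. Across groups, libraries that shared sex and number deviated together with a mean r of 0.168 (36 pairs, −0.44 to 0.76, 23 over 0.1), against −0.0284 for 72 pairs of different numbers. Retnlb, below the filter, was tested by exact permutation. Correlations used log2 CPM with a prior count of 1. The fit was tested on simulated data.

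Alternatives were DESeq2 1.42.0, limma-voom (limma 3.58.1), RLE and upper quartile normalization, 2 other filters, robust quasi-likelihood, only the 12 samples compared, no replicate block, a pan-epithelial score as a covariate, and leaving out libraries. The sex differences without CD M3, or HFD M2 and HFD F2, were added after seeing the data. The members and gene lists were chosen with earlier results of these data known. Text was limited to the 10 members, at most 3 genes per related list with the smallest unadjusted p in the 4 contrasts, and the 8 genes most like the members. Where a list counted few genes under an unadjusted p of 0.05, these were named too, as were other genes of the lists chosen after their values were seen (Lrrc26, Muc3, Muc5ac, Fabp6, the cytokines, Tff1 and Tff2). Precision followed depth, from 1829690 to 40606442 reads on genes, and intervals are 95%.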

Additional observations from a re-analysis of the deposited data

Results flagged for a closer look

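Of 40 sets of 6 values (10 genes in 4 groups), 7 held a value far from the other 5 by Dixon's test (gap over range above 0.625), and chance marks about 1 in 20. The library labelled HFD M2 had 6185 CPM of Muc2, against 2174 to 3185 in the other HFD animals. HFDmetf F1 had 175 CPM of Agr2, against 250.1 to 294 in the others of its group. CDmetf M2 had 376 CPM of Spink4, against 124 to 217. The other 4 were Retnlb, where most of each group was at 0: CD M3 at 0.236 CPM, CDmetf M2 at 0.301, HFD M3 at 2.45 and HFDmetf M1 at 1.59. The first 2 of these were 1 read each, so they rest on counting error.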

How the results depend on the processing

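The count of members past an FDR of 0.05 was 0 in all 214 counts over the 6 comparisons and their alternatives, with 0 to 0 when each animal was left out in turn. Without the replicate block, which pairs animals of the same number, it was also 0 in all 6 comparisons, and the unadjusted p of Muc13 was 0.0150 in HFDmetf vs. CDmetf and 0.0256 in HFDmetf vs. HFD. Those of Spdef in the interaction (0.0553) and Muc2 between the sexes (0.0745) then missed 0.05. Over all alternatives the members at an unadjusted p under 0.05 counted 0 to 1 in HFD vs. CD and in HFDmetf vs. HFD, 0 to 3 in HFDmetf vs. CDmetf, and 0 to 2 in each of CDmetf vs. CD, the interaction and between the sexes. All genes at that p counted 428 to 1390 in HFD vs. CD, 340 to 2331 in HFDmetf vs. HFD and 667 to 2079 in HFDmetf vs. CDmetf. They counted 393 to 1690 in CDmetf vs. CD, 470 to 1925 in the interaction and 639 to 2303 between the sexes. The number of genes tested differed between filters. The 931 genes at that p in HFDmetf vs. HFD were 401 without HFDmetf M1 and 2331 without HFD F3. Of 785 values of single members under an alternative, 784 kept their direction. These covered Muc13 and Spdef in every comparison, and the other members only where the main change exceeded its SE. Fcgbp and Spink4 were not among them. Small changes, which switch sign most easily, were mostly left out, so this count says little of how stable the directions were. The exception was Muc13 in HFD vs. CD, at −0.037 when HFD M2 and HFD F2 (as labelled) were left out, and the cause was not tested. Over all genes DESeq2 called 13 in HFD vs. CD, 3 in HFDmetf vs. CDmetf, 4 in CDmetf vs. CD, 4 in the interaction and 19 between the sexes, where edgeR called 0, 0, 0, 0 and 1. Depth limits Retnlb most, with 22 reads in all.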
